A study of Homo sapiens with 3 samples.

Results

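The genes described here are the heat shock protein, J-domain and chaperonin genes of OCI-AML2 R50 cells, with the heat shock factors HSF1 and HSF2. They were chosen by symbol alone: names that begin with HSPA, HSPB, HSPD, HSPE, HSPH or HSP90, numbered DNAJA, DNAJB and DNAJC genes, numbered CCT genes, TCP1, HSF1 and HSF2. The rule found 83 of the 25247 named genes, in 95 rows that were summed per symbol. Of the 83, 67 reached 1 FPKM in at least 1 library and were tested. FPKM is the number of sequenced fragments scaled to transcript length and to the fragments of the library, so levels can be compared between genes.

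OCI-AML2 is an established cell line of acute myeloid leukaemia (AML). The R50 cells of both groups grew in MEMα medium with 15% serum and 50 µM cytarabine (Ara-C), the nucleoside analogue of AML chemotherapy, so the controls carried that drug too. The control group was 1 library of cells without romidepsin, and the treated group was 2 libraries of cells given romidepsin for 18 h. Romidepsin is a bacterial cyclic peptide that blocks class I histone deacetylases. The sources used here give neither its dose nor whether its libraries came from separate cultures, so the p-values reflect the spread between libraries alone, and that spread may be technical.

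FPKM values summed to 790922 for the control library and to 668773 and 657213 for the treated ones. Steps between low values put the depth at about 15100000 to 22800000 fragments, at which 1 FPKM of a transcript of 2000 bases is roughly 30.2 to 45.6 fragments. The 6 myeloid markers examined were present in every library, 3 of them lower (CD33, MPO and SPI1) and 3 higher (CEBPA, PTPRC and CD68) after romidepsin by the test described below. MPO was at 751 FPKM in the control library and at 444 and 433 FPKM in the treated libraries, and PTPRC at 71.3, 96.7 and 95.9 FPKM. Of the 13 markers of erythroid, T, B, epithelial and fibroblast cells, 7 were at 0 in all libraries, among them HBB, MS4A1, EPCAM and the fibroblast gene COL1A2. The 13 summed to 0.571 FPKM in the control library and to 5.33 and 5.60 FPKM in the treated libraries. COL1A1 and DCN, also fibroblast markers, went from 0.0275 and 0.0250 FPKM to 2.30 and 2.54 FPKM and to 1.49 and 1.24 FPKM. The part of these transcripts in the results below was not tested.

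Chaperones bind unfolded or unstable proteins and help them fold. HSP70 proteins hold short exposed stretches in a cycle driven by ATP, J-domain proteins (the DNAJ families) bring clients to HSP70 and speed its ATP hydrolysis, and HSP110 proteins release the nucleotide. HSP90 matures kinases and receptors, the ring-shaped CCT complex folds actin and tubulin in the cytosol, and HSPD1 with its lid HSPE1 does similar work in mitochondria. HSF1 is the main activator of heat shock genes, through heat shock elements made of alternating GAA and TTC blocks in their promoters. HSP90 and HSP70 are also known to carry acetyl groups that deacetylases remove.

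Promoters are printed for 3 heat-inducible genes that were higher after romidepsin and 3 that were lower, because heat shock elements are found in both. They are RefSeq sequences of assembly GRCh38.p14, from 250 bases before to 50 bases after the transcription start, written 5′ to 3′ on the strand of the gene. Capitals mark each pair of facing blocks, that is GAANNTTC or TTCNNGAA, which together cover both strands, and overlapping pairs run together. For a gene with several starts, the start with the most pairs is shown.
HSPA1A, chr6:31815293-31815592, plus strand: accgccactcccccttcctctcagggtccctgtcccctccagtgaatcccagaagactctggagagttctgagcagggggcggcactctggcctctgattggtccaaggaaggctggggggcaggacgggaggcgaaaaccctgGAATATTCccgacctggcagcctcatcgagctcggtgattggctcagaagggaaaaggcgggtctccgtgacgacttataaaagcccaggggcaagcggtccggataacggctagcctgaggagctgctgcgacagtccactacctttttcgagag
HSPA1B, chr6:31827488-31827787, plus strand: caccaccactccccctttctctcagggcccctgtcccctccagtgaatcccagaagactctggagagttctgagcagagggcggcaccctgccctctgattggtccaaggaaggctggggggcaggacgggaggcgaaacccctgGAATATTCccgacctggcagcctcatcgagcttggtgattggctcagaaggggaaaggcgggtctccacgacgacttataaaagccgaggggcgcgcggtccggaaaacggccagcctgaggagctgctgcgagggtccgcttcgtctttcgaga
DNAJB1, chr19:14518348-14518647, minus strand: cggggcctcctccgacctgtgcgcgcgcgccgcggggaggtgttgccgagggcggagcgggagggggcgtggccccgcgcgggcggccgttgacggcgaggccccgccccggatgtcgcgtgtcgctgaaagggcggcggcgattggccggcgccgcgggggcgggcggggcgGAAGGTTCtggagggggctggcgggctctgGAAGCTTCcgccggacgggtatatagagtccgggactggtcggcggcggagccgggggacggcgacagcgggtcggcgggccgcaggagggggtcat
HSPA8, chr11:123062087-123062386, minus strand: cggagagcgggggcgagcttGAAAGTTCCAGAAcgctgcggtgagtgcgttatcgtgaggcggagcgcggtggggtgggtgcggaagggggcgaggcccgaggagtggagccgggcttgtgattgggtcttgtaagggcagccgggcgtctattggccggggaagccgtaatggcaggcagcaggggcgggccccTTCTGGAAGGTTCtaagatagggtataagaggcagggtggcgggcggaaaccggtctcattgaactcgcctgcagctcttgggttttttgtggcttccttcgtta
HSP90AA1, chr14:102086995-102087294, minus strand: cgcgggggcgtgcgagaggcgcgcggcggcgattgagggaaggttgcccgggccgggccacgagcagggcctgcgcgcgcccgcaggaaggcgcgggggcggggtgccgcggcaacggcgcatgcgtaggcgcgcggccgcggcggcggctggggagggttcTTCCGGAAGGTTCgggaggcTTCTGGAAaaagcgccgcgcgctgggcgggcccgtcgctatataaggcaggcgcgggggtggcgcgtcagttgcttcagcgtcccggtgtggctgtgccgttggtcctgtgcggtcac
HSPD1, chr2:197499791-197500090, minus strand: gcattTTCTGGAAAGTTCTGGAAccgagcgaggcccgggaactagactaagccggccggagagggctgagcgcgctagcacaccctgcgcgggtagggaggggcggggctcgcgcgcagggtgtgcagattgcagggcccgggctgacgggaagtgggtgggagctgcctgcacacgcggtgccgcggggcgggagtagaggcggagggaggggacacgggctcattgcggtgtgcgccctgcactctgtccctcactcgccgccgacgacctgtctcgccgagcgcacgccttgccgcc

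HSPA1A and HSPA1B each hold 1 pair in this window, starting at positions -106 and -105, where -1 is the base before the transcription start. DNAJB1 holds 2, at -77 and -47. HSP90AA1 and HSPD1 hold 3 and HSPA8 holds 4. The HSPA1A and HSPA1B windows are identical at 277 of 299 aligned bases (92.6%), whereas HSPA1A and HSPA8 match at 31.1%.

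RefSeq promoters were matched by symbol for 71 of the 83 genes, with 95 starts in all. A pair lay in 27 of the 95 windows (28.4%), against 13.5% of the 35116 human promoters of the same length. Windows with 3 alternating blocks (GAANNTTC extended by NNGAA, or TTCNNGAA extended by NNTTC) were 7 of 95 (7.37%), against 0.49% of all promoters. Each 3-block match contains pairs, so the counts overlap. For comparison, the GC box (GGGCGG or CCGCCC) was in 72.6% of chaperone windows and 45.0% of all windows. The CCAAT box (CCAAT or ATTGG) was in 40.0% and 34.6%, and the E-box CACGTG in 9.47% and 7.26%.

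The comparison asked which chaperone transcripts differed after 18 h of romidepsin. Most of the abundant ones were lower, among them HSP90AB1, HSPA8, HSP90AA1, HSPD1 and HSPB1, the 5 highest in the control. The stress-inducible HSPA1A, HSPA1B and DNAJB1, and several J-domain genes of the endoplasmic reticulum, were higher. HSPA1A, HSPA1B and DNAJB1 were the only 3 called higher as deposited of 11 heat-inducible genes tested, and 7 were called lower. HSPA8, HSP90AA1, HSPD1 and HSPB1 are among those 7. By limma on log2(FPKM + 1), with Benjamini-Hochberg adjustment over all 11708 tested genes, 23 of the 67 tested members were higher and 39 were lower. Over all tested genes, 34.7% were called higher and 41.8% lower, so the members' share of higher calls (34.3%) was near the background and their share of lower calls (58.2%) was above it.

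Calls of this kind depend on how libraries are scaled. Scaling the libraries to the same sum moved the median difference of all genes by 0.21 on the log2 scale, from -0.05 to 0.16. Of all tested genes, 48.7% were then higher and 26.2% lower, and 29 of the members were higher and 28 lower. The members' median lay 0.17 below that of all genes as deposited (-0.22 against -0.05) and 0.15 below it at the same sum (0.01 against 0.16), but 0.01 above it after quantile normalization (-0.04 against -0.05). At the same sum, 28 of the 39 lower calls and all 23 higher calls were kept, and after quantile normalization 29 and 18. The difference of 32 of the 39 lower calls shrank over 1.5 times or changed sign at the same sum, and that of 22 did so after quantile normalization. CCT8 and HSPA14 turned from lower to higher there, and CCT8 did so after quantile normalization.

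A difference of at least 2-fold in both romidepsin libraries, a rule with no test, was met upward by 6 members (HSPA1A, HSPA1B, HSPA2, HSPA7, DNAJB5 and DNAJC12) and downward by none. The same rule was met by 7.43% of all tested genes upward and 3.08% downward. DNAJC2 and DNAJC17 were at least 2-fold lower in the second romidepsin library only. There were 6 tested members under 1 FPKM in the control (DNAJB5, HSPA2, HSPA7, DNAJC28, DNAJC6 and HSPB7), so they entered the test only through the romidepsin libraries and had to be higher.

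**Figure D1:**
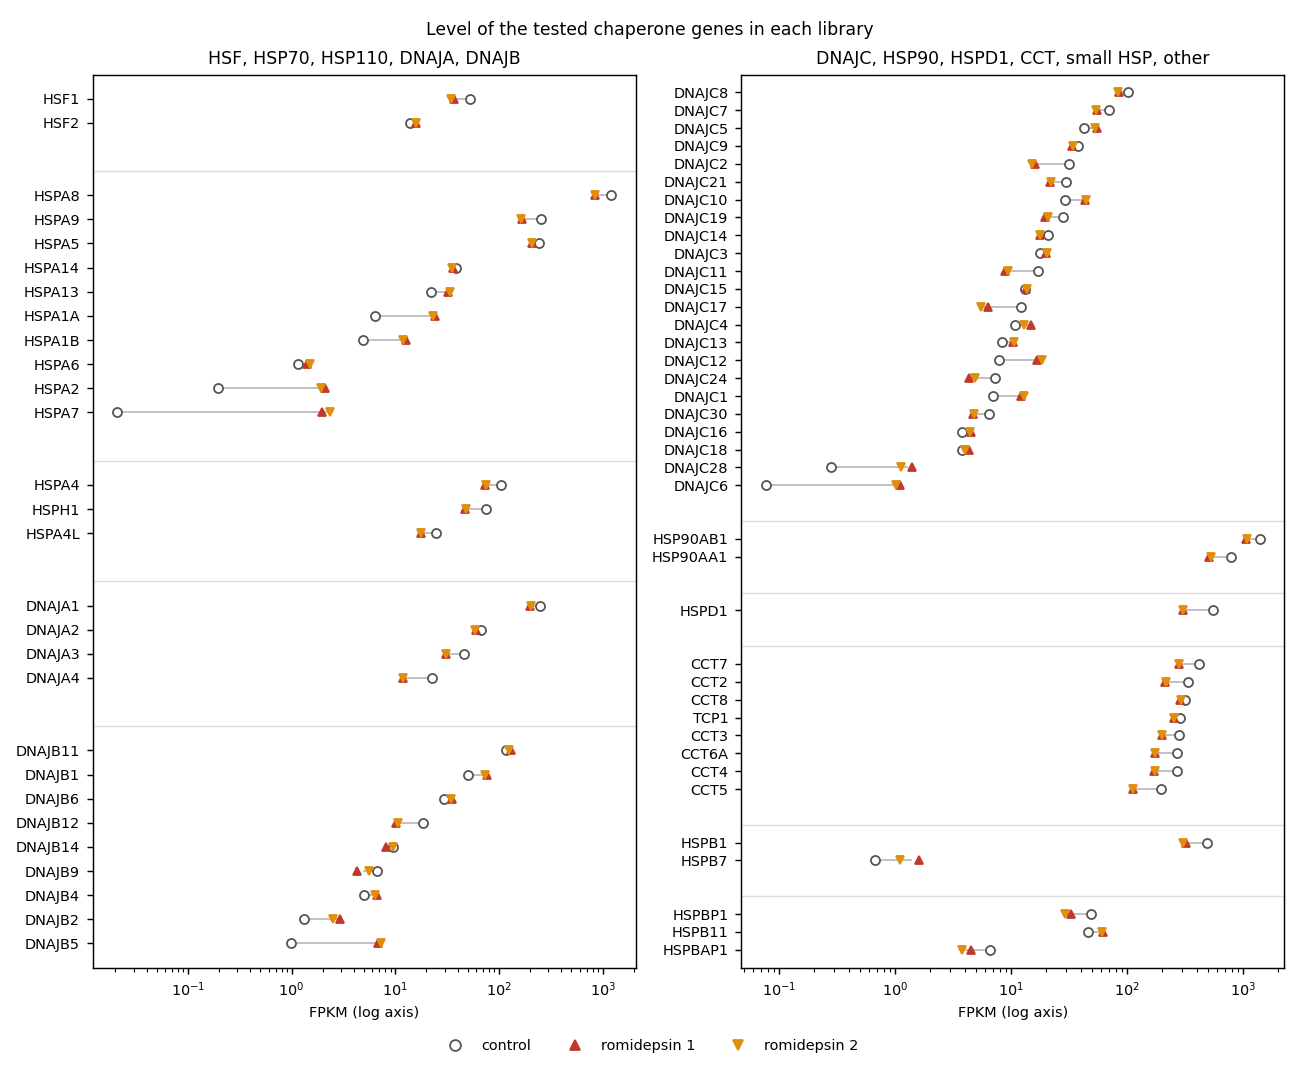
Level of each tested chaperone gene in FPKM (log axis) in the control library (open circle) and in the first and second romidepsin libraries (triangles pointing up and down), with a grey line from the control to the romidepsin mean and grey rules between classes. For the 61 genes with at least 1 FPKM in the control, the romidepsin libraries lie close together (median ratio 1.02, largest 1.30). The genes under 1 FPKM there are not in these ratios, and HSPB7 among them was at 1.61 and 1.11 FPKM. Of all tested genes shown, 27 have both romidepsin libraries above the control and 39 have both below it.

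The transcription factors of the response moved apart. HSF1 was at 52.2 FPKM in the control and at 36.5 and 34.6 FPKM in the romidepsin libraries. Both treated libraries were below the control, a difference of -0.54 ± 0.05 (SE, limma adjusted p = 3.03e-05), and -0.31 at the same sum. HSF2, a related factor that can bind the same elements, was at 13.8, 15.8 and 16.0 FPKM and was higher by 0.19 ± 0.05 (limma adjusted p = 0.0105). Of the 3 other measured regulators and classical targets read in rows of their own and tested, all were lower as deposited. Lower calls were 41.8% of all tested genes. HSF4, read only in a joint row with FBXL8, was at 2.40, 3.002 and 3.57 FPKM and was higher (0.33 ± 0.11, limma adjusted p = 0.0257; 0.50 at the same sum). SERPINH1, the collagen chaperone HSP47 and a known HSF1 target, went from 38.7 FPKM to 16.3 and 17.3 FPKM (-1.15 ± 0.05). HSBP1, a small protein that binds HSF1, was lower by the least, at 57.6, 49.5 and 47.9 FPKM, and its same-sum difference was 0.00.

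Among HSP70 genes, the inducible HSPA1A and HSPA1B were higher, and the constitutive HSPA8 and the mitochondrial HSPA9 were lower. HSPA1A, the classical heat-inducible HSP70, was at 6.31 FPKM in the control and at 24.1 and 22.9 FPKM after romidepsin. Both treated libraries were far above the control, a 3.72-fold difference (1.74 ± 0.06 on the log2 scale, limma adjusted p = 4.23e-07). HSPA1B, its neighbour with nearly the same product, was at 4.89, 12.8 and 11.9 FPKM (2.52-fold, 1.18 ± 0.07). HSPA8, the constitutive cytosolic HSP70, is also counted here among the heat-inducible genes. HSPA8 was at 1213, 841 and 850.3 FPKM. It fell by 0.52 ± 0.03 on the log2 scale (limma adjusted p = 4.78e-06) and was at -0.28 at the same sum and -0.15 after quantile normalization. HSPA1A and HSPA1B together were 0.923% of the HSPA8 level in the control and 4.38% and 4.09% of it after romidepsin. This ratio is taken within a library, where a common scaling factor cancels, and HSPA8 remained 22.8 and 24.5 times the level of the inducible sum.

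HSPA1A and HSPA1B share much of their sequence, and the sources used here do not say how the counting split shared fragments. Of the 50-base stretches of the longest GENCODE transcript of HSPA1A, 72.6% also occur in HSPA1B. The split between these copies is therefore uncertain, whereas their sum went from 11.2 FPKM to 36.9 and 34.8 FPKM (3.20-fold). Each symbol appeared in 5 rows, of which 1 row held a value above 0. HSPA6, a strictly stress-inducible HSP70, and HSPA7, its pseudogene-like copy, pose the same problem, with 45.5% of HSPA6 stretches found in HSPA7. HSPA6 was at 1.15, 1.40 and 1.505 FPKM and did not pass the test (0.19 ± 0.12, limma adjusted p = 0.177). At the same sum HSPA6 was called higher (0.32, limma adjusted p = 0.0438). HSPA7 was at 0.0209 FPKM in the control, about 0.608 to 0.719 of a fragment, and at 1.98 and 2.34 FPKM after romidepsin. The sum of HSPA6 and HSPA7 was 1.17, 3.37 and 3.85 FPKM, and nearly all of that difference lay in HSPA7, which entered the test only through the romidepsin libraries.

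Of the 10 tested HSP70 genes, 5 were higher and 4 lower, and 2 of the 5 were under 1 FPKM in the control. At the same sum 7 were higher and 2 lower. The shares over all tested genes were 34.7% higher and 41.8% lower as deposited, and 48.7% and 26.2% at the same sum. HSPA2, best known from the testis, was at 0.196, 2.09 and 1.90 FPKM, which is about 16.0 to 18.9 fragments in the control and 181 to 257 after romidepsin. HSPA13, a microsomal HSP70-like protein, was at 22.2, 32.5 and 33.4 FPKM (0.55 ± 0.04). HSPA14, a ribosome-associated member, was at 38.8, 36.0 and 35.5 FPKM (-0.12 ± 0.04) and was called higher at the same sum. The class median was 0.37, but -0.18 without the near-identical copies.

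J-domain genes went in both directions. DNAJB1, the stress-inducible partner of HSP70, was at 50.2 FPKM in the control and at 75.9 and 73.0 FPKM after romidepsin. Both treated libraries were above the control (1.48-fold, 0.56 ± 0.04, limma adjusted p = 1.36e-05). DNAJA1, the abundant farnesylated partner of HSPA8, was at 248, 198 and 205 FPKM (-0.30 ± 0.04), and at -0.06, no longer called, at the same sum. The DNAJB1 level was 20.2% of that of DNAJA1 in the control and 38.4% and 35.6% after romidepsin.

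All 4 DNAJA genes were called lower as deposited. DNAJA4 had the largest difference, from 22.6 FPKM to 11.9 and 11.8 FPKM (-0.88 ± 0.05), and DNAJA2 the smallest, from 66.9 to 60.2 and 58.8 FPKM (-0.17 ± 0.04), which turned to 0.07 and lost its call at the same sum. Of the 9 tested DNAJB genes, 6 were higher and 2 lower, and 1 of the 6 was under 1 FPKM in the control. At the same sum 6 were higher and 1 lower. Beside these DNAJA and DNAJB counts, 34.7% of all tested genes were higher and 41.8% lower as deposited. At the same sum these shares were 48.7% and 26.2%. DNAJB5, a J-domain protein known to bind the class IIa histone deacetylase HDAC4, showed the largest difference of all members on the log2(FPKM + 1) scale. With a pseudocount of 0.1, HSPA7 (4.22) and HSPA2 (2.82) stood above DNAJB5 (2.70). DNAJB5 was at 0.992 FPKM in the control and at 6.82 and 7.22 FPKM after romidepsin (2.01 ± 0.08, limma adjusted p = 1.04e-06). In estimated fragments that is 78.3 to 92.6 in the control and 666 to 814 in the treated libraries.

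The DNAJC family has the J domain and little else in common. Of its 23 tested genes, 9 were higher and 11 lower, 3 passed in neither direction, and the median was 0.03. At the same sum 12 were higher and 7 lower. Over all tested genes 34.7% were higher and 41.8% lower as deposited, and 48.7% and 26.2% at the same sum. There were 2 DNAJC genes, both called higher, under 1 FPKM in the control. DNAJC12, a co-chaperone of aromatic amino acid hydroxylases, had the largest difference upward. It was at 7.85 FPKM in the control and at 16.9 and 18.4 FPKM after romidepsin (2.25-fold, 1.07 ± 0.06). DNAJC2, which encodes the ribosome-associated partner of HSPA14, had the largest downward, at 31.9, 16.0 and 15.2 FPKM (-0.99 ± 0.05), and DNAJC17 was at 12.2, 6.27 and 5.46 FPKM (-0.95 ± 0.08). The differences of both were below -0.7 at the same sum.

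**Figure D2:**
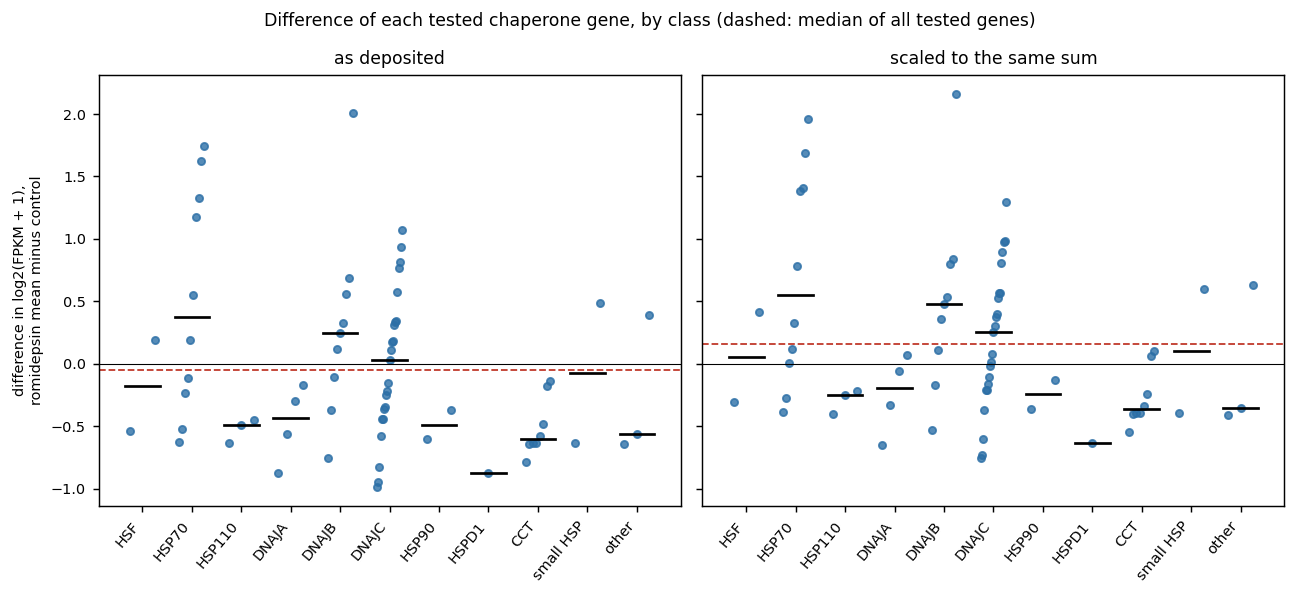
Difference in log2(FPKM + 1), romidepsin mean minus control, of each tested gene (points) by class, as deposited (left) and with the libraries scaled to the same sum (right), with the class median (black bar) and the median of all tested genes (dashed). HSP110, DNAJA, HSP90, HSPD1 and CCT medians lie below the dashed line in both panels, and HSP70 and DNAJB medians lie above it.

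The HSP110 exchange factors and the tested HSP90 genes were all called lower as deposited. Lower calls made up 41.8% of all tested genes and 81.6% of those with at least 100 FPKM in the control. HSPH1, the stress-inducible HSP110, was at 75.1, 47.5 and 48.4 FPKM (-0.64 ± 0.04), and HSPA4L, the least changed of the 3, was at 24.6, 17.8 and 17.8 FPKM (-0.45 ± 0.05). All 3 HSP110 genes were also lower at the same sum and after quantile normalization. HSP90AA1, the inducible cytosolic HSP90, was at 789.8 FPKM in the control and at 508 and 529.5 FPKM after romidepsin. Both treated libraries were below the control (-0.61 ± 0.04, limma adjusted p = 5.23e-06), with a difference of -0.37 at the same sum and -0.20 after quantile normalization. HSP90AB1, the constitutive form and the most abundant member, was at 1389, 1066 and 1085 FPKM (-0.37 ± 0.03), with -0.13 at the same sum and -0.04 after quantile normalization, where its limma adjusted p was 0.143. The HSP90AA1 level was 56.9% of that of HSP90AB1 in the control and 47.6% and 48.8% after romidepsin.

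These abundant genes also have processed pseudogenes. Of their 50-base stretches, 18.8% (HSP90AB1), 17.5% (HSP90AA1), 24.8% (HSPD1) and 15.4% (HSPA8) occur in other annotated genes. A part of their fragments may therefore not have been placed uniquely. The effect on the FPKM values was not tested.

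The heat-inducible genes of the list used here went in both directions. Of the 11 with rows of their own, 3 were higher (HSPA1A, HSPA1B and DNAJB1), 7 were lower (HSPA8, HSPH1, HSPA4L, HSP90AA1, HSPB1, HSPD1 and DNAJA1), and HSPA6 passed in neither direction. HSPB1, the small heat shock protein HSP27, was at 485, 321 and 303 FPKM (-0.63 ± 0.04; -0.39 at the same sum). At the same sum 6 of the 7 remained lower, and HSPA6 was called higher, which made 4 higher of the 11. The promoters shown above were chosen to hold a pair in both directions, so the counts over all tested members are given instead. Of the 20 tested genes with a pair in at least 1 promoter window, 6 were higher and 12 lower (median difference -0.33). Of the 40 with a window and no pair, 14 were higher and 23 lower (median difference -0.19). Among the 7 with 3 alternating blocks, 1 was higher and 5 were lower. Those 5 (DNAJA1, HSP90AA1, HSP90AB1, HSPA8 and HSPD1) were at 248 FPKM or more in the control. Over all tested genes 34.7% were higher and 41.8% lower, and of those with at least 100 FPKM in the control 81.6% were lower. A relation between the element and the direction was not tested.

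Nearly all mitochondrial chaperones were lower. HSPD1 (HSP60) was at 554 FPKM in the control and at 301 and 302 FPKM after romidepsin. Both treated libraries were at 54.4% of the control on average (-0.88 ± 0.03, limma adjusted p = 5.85e-07), and the difference was -0.64 at the same sum and -0.55 after quantile normalization. Its lid HSPE1 was read only in a joint row with MOB4 that the symbol rule does not take, at 482, 272 and 272 FPKM (-0.82 ± 0.03). HSPA9, the mitochondrial HSP70 that pulls in imported proteins, was at 255, 165 and 163 FPKM (-0.63 ± 0.03; -0.39 at the same sum and -0.35 after quantile normalization). HSPA9's J-domain partner DNAJA3 was at 46.1, 30.6 and 31.1 FPKM (-0.56 ± 0.04).

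Among the mitochondrial DNAJC genes, DNAJC11, which belongs to the machinery that shapes cristae, was at 17.0, 8.90 and 9.33 FPKM (-0.83 ± 0.06). DNAJC19, a subunit of the import motor, was at 27.8, 19.6 and 20.8 FPKM (-0.44 ± 0.05), and DNAJC30, known for its role in complex I repair, at 6.41, 4.74 and 4.75 FPKM (-0.37 ± 0.07). DNAJC15, a paralogue of DNAJC19 at the same motor, was at 13.3, 13.6 and 13.6 FPKM and did not pass the test (limma adjusted p = 0.614). In all, 6 of the 7 mitochondrial members with rows of their own were lower and none higher, with a median of -0.56. Lower calls made up 41.8% of all tested genes. They made up 54.1% of genes from 10 to 100 FPKM in the control and 81.6% of those with at least 100 FPKM. At the same sum 5 were lower, DNAJC15 was higher and DNAJC30 lost its call (limma adjusted p = 0.0785).

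Of the 10 mitochondrial proteins listed beside them, 8 were lower and 1 higher, with a median of -0.70. At the same sum 6 were lower and 3 higher, with a median of -0.47. The shares over all tested genes were 41.8% lower and 34.7% higher as deposited, and 26.2% and 48.7% at the same sum. The largest fall was that of AFG3L2, a subunit of the m-AAA protease, from 58.8 FPKM to 29.2 and 28.7 FPKM (-0.997 ± 0.042). OMA1, the stress-activated inner membrane protease, was higher, at 14.4, 17.6 and 17.1 FPKM (0.25 ± 0.05).

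The chaperones of the endoplasmic reticulum (ER) were mixed. HSPA5 (BiP), the ER HSP70, was at 245 FPKM in the control and at 209 and 208 FPKM after romidepsin. It was lower as deposited (-0.23 ± 0.03, limma adjusted p = 0.000349) and stood at 0.01, with no call, at the same sum and at 0.06 after quantile normalization. DNAJB11, a J-domain partner of BiP, was at 118, 129.5 and 126 FPKM (0.12 ± 0.04), so the level of HSPA5 relative to DNAJB11 went from 2.08 to 1.61 and 1.65. DNAJC10, a disulfide reductase with a J domain, was at 28.97, 43.0 and 44.2 FPKM (0.57 ± 0.04). DNAJC1, a membrane-bound partner of BiP, was at 6.94, 12.2 and 12.8 FPKM (0.76 ± 0.06), and DNAJC3, which is also an inhibitor of the kinase PERK, at 17.7, 20.0 and 20.2 FPKM (0.17 ± 0.05). For each of these 4 partners both treated libraries were above the control, at the same sum too.

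Other ER members did not share this direction. DNAJB12, a membrane protein of ER-associated degradation, was at 18.4, 10.3 and 10.7 FPKM (-0.76 ± 0.06). DNAJB9, a repressor of the stress sensor IRE1, was at 6.66, 4.31 and 5.59 FPKM (-0.37 ± 0.12, limma adjusted p = 0.0267), and its call was lost at the same sum (limma adjusted p = 0.289). DNAJB14 was at 9.55, 8.06 and 9.57 FPKM, with the control between the treated libraries, and did not pass. HSP90B1 (GRP94), the ER HSP90, was read in a joint row with a microRNA that the rule does not take, at 477, 344 and 350.0 FPKM (-0.46 ± 0.03). Of the 9 ER members with rows of their own, 5 were higher and 3 lower, and 5 and 1 at the same sum. Among 15 ER folding partners, which include the stress sensors, 3 were higher and 7 lower as deposited, and 7 higher and 3 lower at the same sum. As deposited, 34.7% of all tested genes were higher and 41.8% lower. At the same sum, the higher calls of the ER members (55.6%) and ER folding partners (46.7%) were near the 48.7% of all tested genes. Lower calls were then 11.1% and 20.0%, against 26.2%. HERPUD1, a gene of ER-associated degradation, had the largest rise, from 44.6 FPKM to 53.0 and 53.4 FPKM (0.25 ± 0.04). The largest fall was that of XBP1, whose product drives ER chaperone genes, from 136 FPKM to 95.9 and 90.0 FPKM (-0.55 ± 0.05).

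The CCT complex contains 8 different subunits in each ring, and all 8 genes were called lower as deposited, with a median of -0.61. The CCT median was -0.37 at the same sum and -0.33 after quantile normalization. All 8 were above 100 FPKM in the control. Of all genes with at least 100 FPKM there, 81.6% were called lower, and their median was -0.39, or -0.15 at the same sum. CCT5 had the largest difference, from 195 FPKM to 112 and 113 FPKM (-0.79 ± 0.03, limma adjusted p = 1.17e-06). CCT2 was at 333, 211 and 216 FPKM (-0.64 ± 0.03), CCT4 at 269, 172 and 174 FPKM (-0.63 ± 0.03) and CCT6A at 271, 173 and 175 FPKM (-0.64 ± 0.03). The differences of these 3 subunits lay within their SE of each other.

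CCT7, the highest in the control, was at 419, 279 and 280.3 FPKM (-0.58 ± 0.03), and CCT3 was at 281, 202 and 199 FPKM (-0.49 ± 0.03). TCP1, the alpha subunit, was at 286, 252 and 252 FPKM (-0.18 ± 0.03), and CCT8 was at 318, 288 and 290.3 FPKM (-0.14 ± 0.03). TCP1 and CCT8 stood at 0.06 and 0.10 at the same sum and at 0.05 and 0.11 after quantile normalization, so their direction depends on the scaling, whereas the other 6 subunits were lower under all 3 scalings. CCT8 overtook CCT7 as the highest subunit after romidepsin. The ratio of highest to lowest subunit went from 2.15 to 2.58 and 2.57, and the coefficient of variation across the 8 from 21.7% to 28.4% and 28.3%. Both are ratios within a library. Of the 50-base stretches of CCT8 and TCP1, 8.59% and 7.80% occur in other genes, mostly pseudogenes of their own. CCT6B, a testis form, was under 1 FPKM in all libraries (0.212, 0.376 and 0.163 FPKM).

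Of 10 prefoldin subunits and other CCT partners, 9 were lower and 1 higher, and 6 lower and 2 higher at the same sum. Among all tested genes, 41.8% were lower and 34.7% higher as deposited, and 26.2% and 48.7% at the same sum. PDCL3, a phosducin-like protein that binds CCT, had the largest fall, from 23.7 FPKM to 11.3 and 12.2 FPKM (-0.96 ± 0.06). PFDN1, a subunit of prefoldin, which hands actin and tubulin to CCT, rose from 50.2 FPKM to 57.6 and 57.2 FPKM (0.19 ± 0.04).

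The co-chaperones of HSP90 were mostly lower. Of 18 tested with rows of their own, 14 were lower and 3 higher (median -0.45), and 11 and 5 at the same sum. Of 3 more read only in joint rows, CDC37 (0.21) and FKBP5 (0.31) were higher and TTC4 (-0.71) was lower. TELO2, which brings HSP90 to PIKK kinases, had the largest fall, from 29.8 FPKM to 15.0 and 14.8 FPKM (-0.95 ± 0.05). UNC45A, a myosin chaperone, had the largest rise, from 25.4 FPKM to 36.7 and 39.2 FPKM (0.56 ± 0.05). Of 13 exchange factors and other partners of HSP70, 7 were lower and 3 higher, and 5 and 5 at the same sum. For both lists, the shares over all tested genes were 41.8% lower and 34.7% higher, and 26.2% and 48.7% at the same sum. Among all genes from 10 to 100 FPKM in the control, 54.1% were lower and 25.8% higher as deposited. BAG3, a stress-inducible exchange factor that acts in selective autophagy, was at 7.19 FPKM in the control and at 14.3 and 14.2 FPKM after romidepsin (0.90 ± 0.06, limma adjusted p = 6.05e-06). BAG2, an inhibitor of the ubiquitin ligase CHIP, was at 44.1, 20.5 and 20.7 FPKM (-1.06 ± 0.04).

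**Figure D3:**
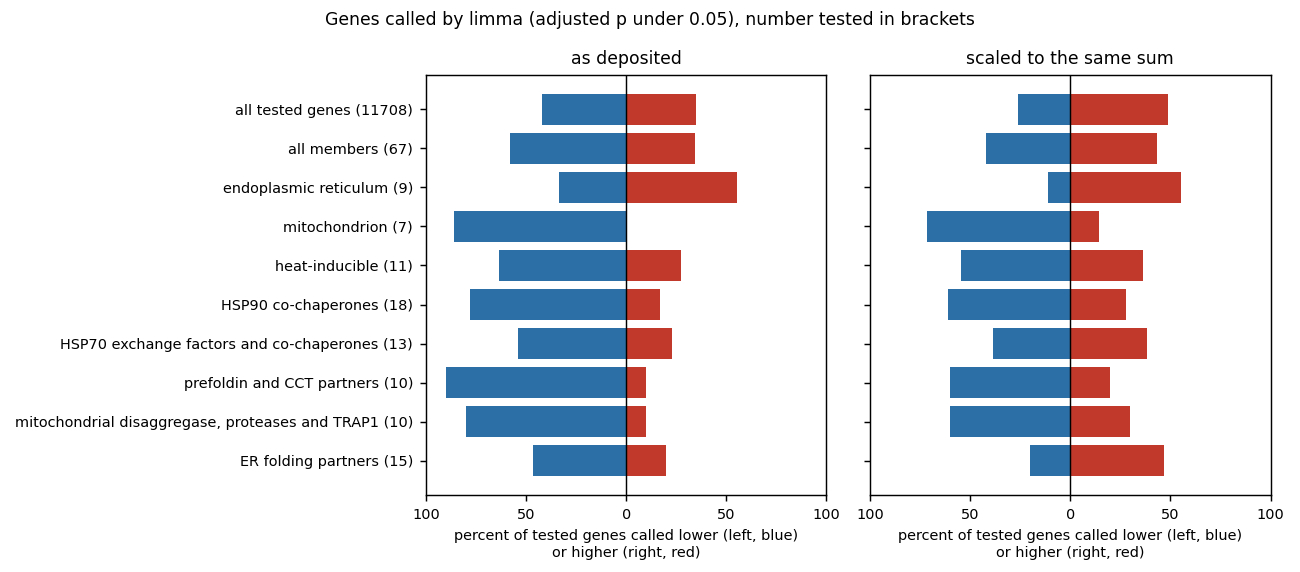
Percent of the tested genes of each list that limma called lower (blue, to the left of 0) or higher (red, to the right) at an adjusted p under 0.05, as deposited (left) and with the libraries scaled to the same sum (right), with the number tested in brackets. The mitochondrial lists are mostly lower in both panels, while 5 of the 9 members of the ER are higher in both. All tested genes are 34.7% higher and 41.8% lower as deposited, and 48.7% and 26.2% at the same sum.

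The small heat shock proteins and 3 other genes with the HSPB prefix made up the rest. HSPB1 was described above. HSPB7, a muscle form under 1 FPKM in the control, entered the test only through the romidepsin libraries. It was at 0.675, 1.61 and 1.11 FPKM (0.49 ± 0.16) and was called higher. Its call was lost after quantile normalization (0.03, limma adjusted p = 0.919) and with no filter (limma adjusted p = 0.156). HSPB11, a subunit of intraflagellar transport despite its name, was at 46.4, 61.7 and 60.6 FPKM (0.39 ± 0.04). HSPBP1, a nucleotide exchange factor of HSP70, was at 48.8, 32.7 and 28.999 FPKM (-0.65 ± 0.07).

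The 16 members that were not tested stayed under 1 FPKM. Of these, 5 were at 0 in every library (HSPA12A, HSPB3, HSPB8, DNAJB3 and DNAJB8), and the highest value of the other 11 was 0.836 FPKM, for DNAJC27 in the control.

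The summed share of the chaperones was smaller after romidepsin, and most of that fall lay in a few abundant genes. The members together made up 1.45% of the FPKM of all named genes in the control and 1.26% and 1.27% after romidepsin. The 10 members highest in the control made up 0.988% of it there and 0.820% and 0.832% after romidepsin. A common scaling factor per library cancels in these shares, and shares after quantile normalization were not computed. CCT made up 0.386%, 0.324% and 0.328%, HSP90 0.355%, 0.302% and 0.312%, and HSP70 0.291%, 0.255% and 0.257%. Shares went the other way for DNAJB, from 0.0389% to 0.0537% and 0.0532%, and for DNAJC, from 0.0826% to 0.0905% and 0.0907%. The share of the 3 other genes with the HSPB prefix also rose, from 0.0166% to 0.0190% and 0.0180%. Of those 3, HSPB11 was called higher and the other 2 lower. The HSPD1 share went from 0.0903% to 0.0578% and 0.0583%.

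The direction moved with the level of a gene, for chaperones and for other genes alike. Of the 19 members with at least 100 FPKM in the control, 18 were lower and 1 higher (DNAJB11), while of all 982 genes at that level 81.6% were lower and 11.3% higher. The median difference of these 19 members was -0.52, against -0.39 for all genes of that level, and -0.28 against -0.15 at the same sum. Of the 27 members from 10 to 100 FPKM, 17 were lower and 9 higher, against 54.1% and 25.8% of all 5536 genes at that level. Of the 15 from 1 to 10 FPKM, 4 were lower and 7 higher, against 25.5% and 40.8% of 4320 genes. Across the 61 members with at least 1 FPKM in the control, Spearman's rho between control level and difference was -0.472, and across all 10838 such genes it was -0.357. Both values are descriptions, since the same control library enters both axes.

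**Figure D4:**
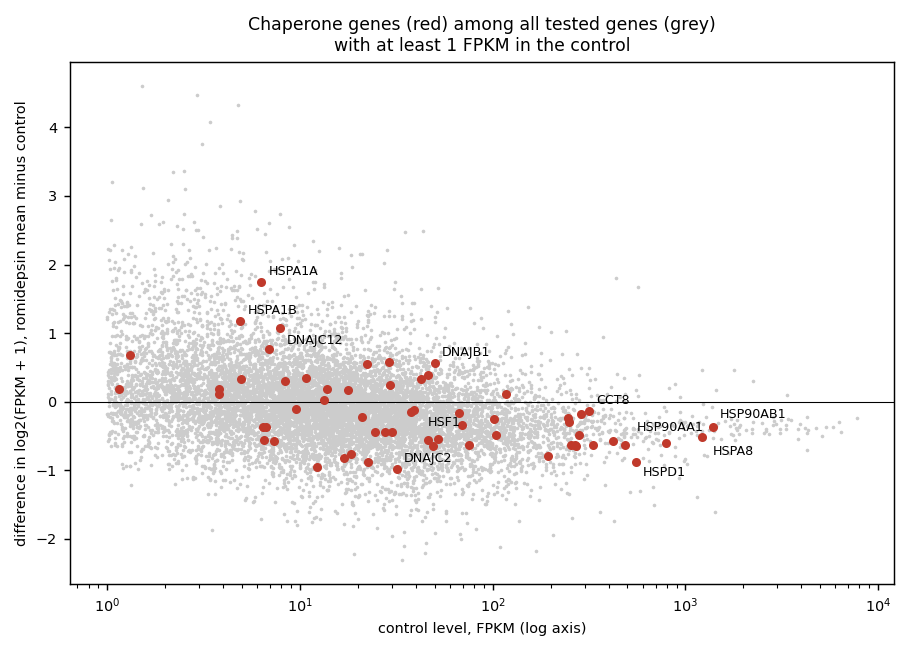
Difference in log2(FPKM + 1), romidepsin mean minus control, against the control level in FPKM (log axis) for chaperone genes (red) and all other tested genes (grey) with at least 1 FPKM in the control. The 19 chaperone genes at 100 FPKM or more lie below 0 except DNAJB11, in a range of levels where most other genes also lie below 0.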

How the data were processed

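RNA sequencing of 1 control and 2 romidepsin libraries was read from tables in which the authors deposited FPKM values, per the file headers. The submitters' processing notes list TopHat, Cufflinks, Cuffdiff and hg19, with versions, settings and annotation not given in the sources used here. Of 28837 rows per library, 1770 without a gene name (22.3%, 22.1% and 21.1% of summed FPKM) and 27 named by a number were left out. Rows of a symbol were summed, which concerned 720 symbols.

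Genes with at least 1 FPKM in at least 1 library (11708) were fitted on log2(FPKM + 1), a scale that understates changes of low genes, by limma 3.58.1 (R 4.3.3; lmFit, eBayes with trend), and calls were made at a Benjamini-Hochberg adjusted p under 0.05. The romidepsin libraries gave the 1 residual degree of freedom, beside 6.06 prior degrees of freedom; the single control is taken to vary as they do, and a difference between cultures cannot be told apart from that of the drug. The script was tested on simulated data. Single values of some cell type markers are not reported here. Steps between the low FPKM values of genes of known length gave an approximate depth. Promoters came from RefSeq (GRCh38.p14) and transcripts for 50-base stretches from GENCODE, a different build from the authors', matched by symbol. Python 3.11.15, pandas 2.3.3, scipy 1.17.1 and matplotlib 3.10.9 were used.

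The members, classes, lists and alternatives were chosen with earlier results of these data known. Named genes were HSF1 and HSF2, the heat-inducible, ER and mitochondrial members, the CCT subunits, members that met the 2-fold rule, the largest rise and fall of each class, and the largest rise and fall of each pathway list. DNAJC17, HSPA14, DNAJC27, CCT6B, HSF4, CDC37, FKBP5, TTC4 and the members at 0 were named after their values were seen. Alternatives were a pseudocount of 0.1, no filter, a mean of at least 5 FPKM, scaling to the same sum, quantile normalization, symbols in 1 row, leaving out near-identical copies, and leaving out each romidepsin library.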

Additional observations from a re-analysis of the deposited data

How the results depend on the processing

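The counts of members called higher and lower stayed within 1.5 times their values under the 7 alternatives with a test, from 17 to 29 higher and from 28 to 39 lower. Leaving out either romidepsin library leaves no residual degree of freedom, so those counts could not be fitted. No paired analysis was possible because the control group holds a single library. The number at least 2-fold higher was 3 without near-identical copies, which removes HSPA1A, HSPA1B and HSPA7. The number at least 2-fold lower ranged from 0 to 2 when either romidepsin library was left out, 2 (DNAJC2 and DNAJC17) without the first. The members' median difference (-0.22) was -0.23 with a pseudocount of 0.1, -0.11 with no filter, -0.34 with a mean of at least 5 FPKM, 0.012 at the same sum, -0.0387 after quantile normalization, -0.23 with symbols in 1 row and -0.25 without near-identical copies. Class medians that changed sign were HSF (0.0544 at the same sum), HSP70 (-0.12 with a mean of at least 5 FPKM and -0.18 without copies) and DNAJC (-0.22 with a mean of at least 5 FPKM and -0.0072 after quantile normalization). The small heat shock proteins, 2 genes, went to 0.13 with a pseudocount of 0.1, 0.17 with no filter and 0.10 at the same sum, and ranged from -0.17 to 0.0235 without either library. At the same sum and after quantile normalization, the difference was 0.10 and 0.11 for CCT8, 0.0704 and 0.0345 for DNAJA2, 0.0065 and 0.0563 for HSPA5, and 0.0608 and 0.0477 for TCP1. DNAJB14 was at 0.11 at the same sum and ranged from -0.22 to 0.0032 without either library, and HSPA6 was at -0.19 after quantile normalization. Scaling to the same sum raises the romidepsin libraries by construction, by an amount that differs with the level of a gene on the log2(FPKM + 1) scale, and the cause of the other changes was not tested. Depth limits HSPA7, HSPA2, DNAJC6 and DNAJC28, which had under 20 estimated fragments in the control.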
